A study of Homo sapiens with 10 samples.

Results

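The effect of the CDK12 inhibitor THZ531 was measured in 22RV1 cells that also received Endovion. The comparison used 4 of the 10 libraries of the series: 2 libraries of cells given THZ531 with Endovion, and 2 libraries of cells given Endovion, chosen by their titles. The 22RV1 line, an established model of prostate cancer that grows without androgen, was used throughout, so all groups share 1 genetic background. Both groups were treated for 4 h with 50 μM Endovion (SCO-101), which the study used as an inhibitor of the splicing kinase SRPK1. The other libraries of the series were of untreated cells, cells given THZ531 and cells given SRPIN340, another inhibitor of SRPK1. They entered the fit over all 10 libraries, which estimates the spread. THZ531 was added at 100 nM according to the methods, whereas the description of the data series gives 150 nM. For the last 10 min all cells received 4-thiouridine. Alkylated label is sequenced as C where the genome has T, so a read with such a T>C conversion is taken to come from RNA made during labelling. The series has no unlabelled library, so T>C reads of another origin, such as sequencing errors or variants, cannot be told apart. T>C reads are called nascent RNA here, and all reads of a gene are called total RNA. No source states that replicates were separate cultures, so p-values measure the spread between these libraries, which may be technical.

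CDK12 is a cyclin K-dependent kinase that phosphorylates the tail of RNA polymerase II during elongation. Its loss is known to favour early cleavage and polyadenylation within introns, and genes of homologous recombination are among those known to depend on it. SRPK1 phosphorylates SR proteins, which take part in splice site choice. The libraries of this study hold the 3′ ends of mRNAs, so a transcript that ends early within an intron adds no read to a 3′ UTR interval further downstream. The count of a gene sums all its intervals that do not overlap, so an annotated early end with its own interval is included.

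The Endovion libraries had 47668119 and 37666297 mapped reads, and the libraries with THZ531 and Endovion 47087003 and 35517462. On genes, T>C reads numbered 1301158 and 1032932 with Endovion, and 1235815 and 1011591 with both compounds. The labelled share of all gene reads was 5.11% ± 0.0737 (SD, n = 2) with Endovion and 5.14% ± 0.136 (SD, n = 2) after THZ531 was added (exact two-sided permutation test, p = 1, where the design cannot go below 0.33). Counts are relative to the library, so a change in the number of cells or in RNA per cell cannot be seen. All 12 prostate epithelial markers were measured, with a summed level of 2256 and 2208 normalised CPM (reads scaled to a common library size) with Endovion and 1942 and 2009 with both compounds. Both libraries with THZ531 were thus below both without it, and 3 of the 12 markers were called down and 0 up in total RNA, while 9 had a log2 fold change above 0. Over all genes tested, 5.92% were called down, and 7393 of 14689 were above 0. Without Endovion replicate 1, 1 marker was called down. The fibroblast markers summed to 3.17 to 5.09 and the blood cell markers to 2.25 to 3.96, while the 4 endothelial markers were at 0 in every library. No library was a copy of its replicate, as the chi-square of their total reads was between 14.6 and 22 times its degrees of freedom in every group.

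Addition of THZ531 lowered more genes than it raised, in both read classes. In total RNA 14689 genes were tested, of which 870 were down (5.92%) and 336 were up (2.29%) at an adjusted p under 0.05 (edgeR quasi-likelihood test, Benjamini-Hochberg over all genes tested, n = 2 libraries per group). Genes past this threshold are referred to as called. In nascent RNA 9946 genes were tested, with 85 down (0.855%) and 45 up (0.452%). Of the genes called in total RNA, 434 were down and 97 up by at least 1 on the log2 scale, against 66 and 27 in nascent RNA. The median log2 fold change over all tested genes was 0.003 in total RNA and 0 in nascent RNA. The scaling of the libraries sets the typical gene near 0, so these medians cannot show whether overall output changed. The libraries of both groups did not overlap for 41.1% of the genes tested in nascent RNA and 53.1% of those tested in total RNA. Genes named below by the smallest p had to meet this condition, so for them it is no finding. Leaving out 1 library at a time lowered the counts to between 326 and 566 down and between 75 and 211 up in total RNA, with the lowest counts without Endovion replicate 1. In nascent RNA the same step left between 10 and 45 down and between 6 and 26 up, with the lowest counts without THZ531_Endovion replicate 1. When overlapping intervals of a gene were summed plainly, 0 genes were down and 1 was up in nascent RNA.

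**Figure D1:**
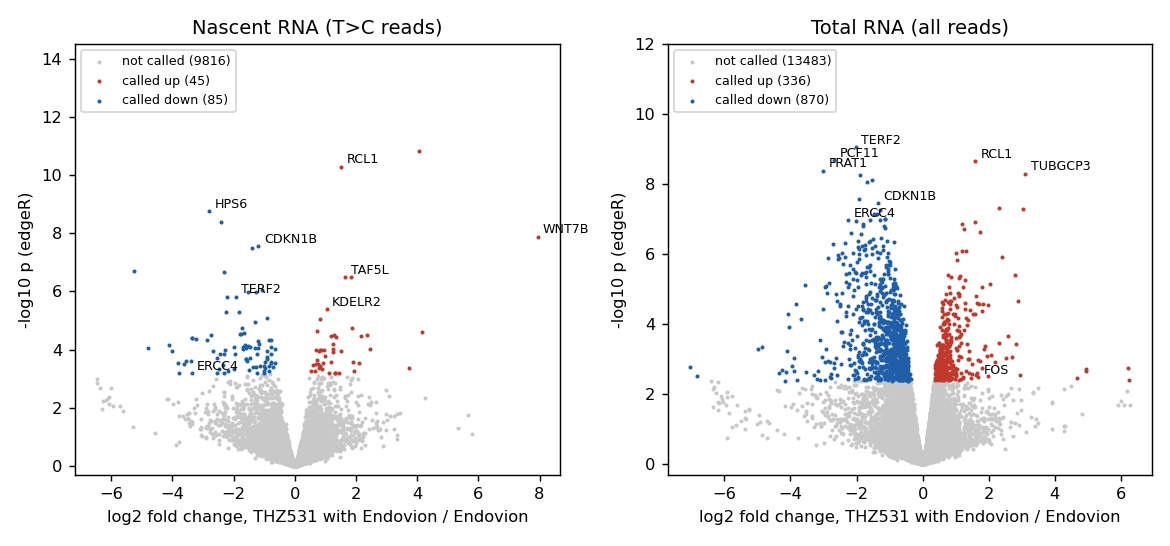
Each point is a gene, with the log2 fold change of THZ531 with Endovion over Endovion on the horizontal axis and -log10 of the unadjusted edgeR p on the vertical axis, for nascent RNA (left) and total RNA (right). Blue and red points are genes called down and up, and blue points outnumber red ones in both panels (85 against 45, and 870 against 336).

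The genes that fell in nascent RNA with the smallest p included CDKN1B, HPS6 and TERF2. CDKN1B encodes p27, an inhibitor of cyclin-dependent kinases, and lies at chr12:12685498-12722369 on the plus strand of hg38. It had 375 and 364 T>C reads with Endovion and 154 and 152 after THZ531 was added. Both libraries with THZ531 were below both without it, and the log2 fold change was -1.19 ± 0.19 (SE, adjusted p = 4.62e-05). Total RNA of CDKN1B changed alike, from 4077 and 4139 reads to 1460 and 1485 (log2 fold change -1.35 ± 0.14, adjusted p = 5.21e-05).

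HPS6, a subunit of the BLOC-2 complex in the biogenesis of lysosome-related organelles, had 129 and 83 T>C reads with Endovion and 9 and 19 after addition of THZ531. Its nascent log2 fold change was -2.79 ± 0.39 (adjusted p = 5.90e-06), the smallest p among the named genes that fell. TERF2, which encodes the shelterin protein TRF2 at chromosome ends, had 93 and 114 T>C reads with Endovion and 41 and 12 with both compounds (log2 fold change -1.92 ± 0.36, adjusted p = 0.000978). In total RNA its reads went from 1284 and 1006 to 320 and 198, and it had the smallest p of all named genes that fell there (log2 fold change -2.02 ± 0.16, adjusted p = 1.10e-05). The groups did not overlap for HPS6 or TERF2 in either read class.

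The other named genes that fell in nascent RNA were C1orf116, GTF3C4, a subunit of the RNA polymerase III factor TFIIIC, TRIM56, LINC00963, ZNF566, DNAJC16 and DNAAF2, with log2 fold changes from -2.31 to -1.06. C1orf116 had 108 and 51 T>C reads against 11 and 18. GTF3C4 had 317 and 281 against 149 and 121. Of the 10 named genes that fell, between 5 and 8 stayed called when 1 of the 4 libraries was left out, the fewest without THZ531_Endovion replicate 1. None of the 20 genes named for nascent RNA was called with the plain sum of intervals.

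RCL1 had the smallest p of the named genes that rose, in both read classes. RCL1 takes part in the processing of ribosomal RNA and lies at chr9:4792944-4885917 on the plus strand of hg38. It had 138 and 156 T>C reads with Endovion and 370 and 423 after THZ531 was added (log2 fold change 1.52 ± 0.19, adjusted p = 2.55e-07). Its total reads rose from 572 and 483 to 1599 and 1290 (log2 fold change 1.59 ± 0.13, adjusted p = 1.10e-05). The lowest library with THZ531 was above the highest without it in both read classes. T>C reads were a far larger part of RCL1 reads than the 5.11% over all gene reads with Endovion. They are also counted in its total, so the 2 read classes are not separate evidence. The source of this high share was not tested.

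TAF5L, a subunit of the PCAF/SAGA acetyltransferase complex, rose from 50 and 42 to 137 and 133 T>C reads (log2 fold change 1.65 ± 0.29, adjusted p = 0.000293). RBM15, an RNA-binding partner of the m6A methyltransferase, rose from 18 and 16 to 71 and 48 (log2 fold change 1.88 ± 0.40, adjusted p = 0.00764). The remaining named genes were TMEM201, KDELR2, ADM, which encodes adrenomedullin, RSRP1, TMX3, KITLG, the ligand of the receptor KIT, and CDKN2D, an inhibitor of CDK4 and CDK6. Their nascent log2 fold changes lay between 1.05 and 2.36. ADM had 16 and 4 T>C reads with Endovion and 52 and 43 with both compounds. Between 4 and 7 of the 10 stayed called without 1 library, and the fewest without Endovion replicate 2 or THZ531_Endovion replicate 1.

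Of these 10 genes, KDELR2, TMX3, KITLG, CDKN2D and RSRP1 were not called in total RNA. KDELR2, the receptor that returns chaperones to the endoplasmic reticulum, had 229 and 192 T>C reads with Endovion and 435 and 382 with both compounds, whereas its total log2 fold change was 0.13 ± 0.11 (adjusted p = 0.562). Across the 9946 genes tested in both read classes, nascent and total log2 fold changes had a Pearson r of 0.597, where genes are not independent replicates and total reads include the T>C reads. Of the 870 genes down in total RNA, 700 were tested in nascent RNA, 653 of these were below 0, and 77 were called down. Of the 336 genes up, 287 were tested, 277 were above 0 and 25 were called up. There were 28 nascent calls without a call in total RNA.

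**Figure D2:**
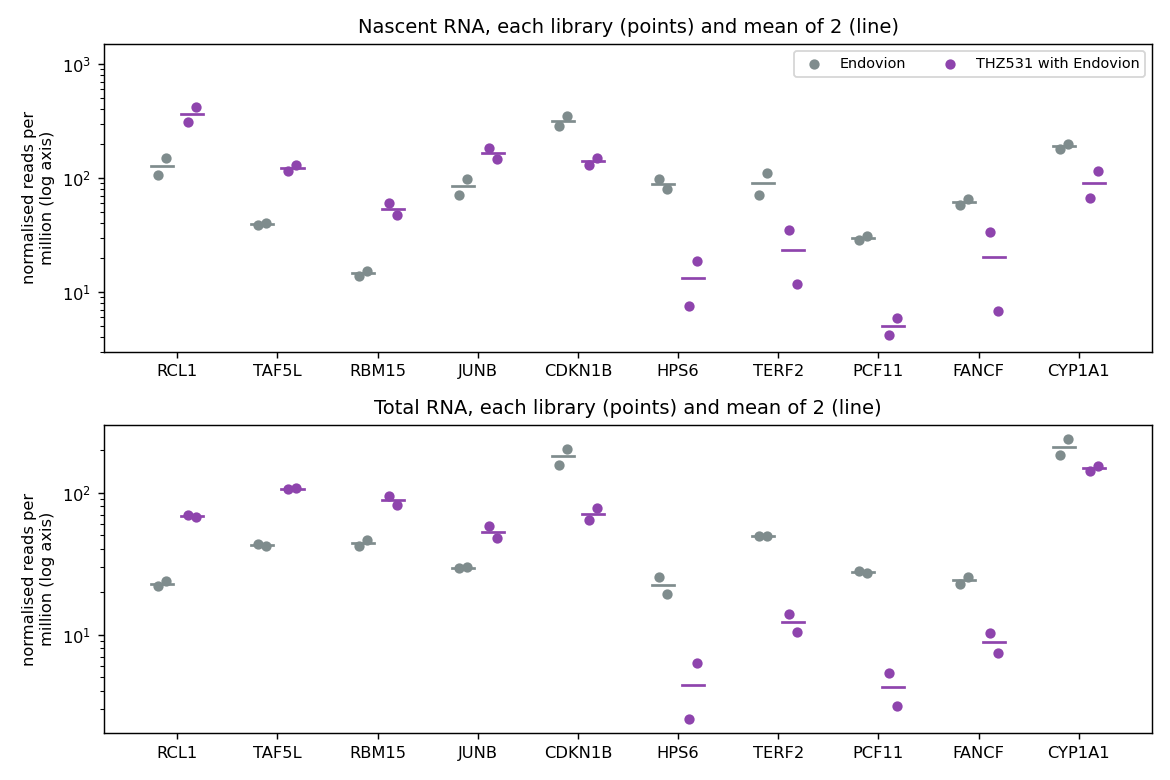
Normalised CPM (log axis) of 10 genes in each of the 2 Endovion libraries (grey) and the 2 libraries of THZ531 with Endovion (purple), for nascent RNA (top) and total RNA (bottom), with the mean of each group as a line. RCL1, TAF5L, RBM15 and JUNB lie higher and the other 6 genes lower with THZ531, and their groups do not overlap, which the rule for named genes required of those it chose.

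In total RNA, the named genes that fell were TERF2, PCF11, FRAT1, FADD and TRMT1L. PCF11 is a subunit of the cleavage factor that ends transcription at polyadenylation sites. It had 729 and 553 reads with Endovion and 123 and 60 with both compounds, and 37 and 32 against 5 and 6 T>C reads. Its log2 fold change was -2.68 ± 0.22 (adjusted p = 1.10e-05) in total and -2.53 ± 0.64 (adjusted p = 0.0252) in nascent RNA. FRAT1, an inhibitor of GSK3, had 434 and 447 reads against 42 and 57 (log2 fold change -3.01 ± 0.26, adjusted p = 1.33e-05). FADD, an adaptor of death receptors, had 736 and 549 against 163 and 149 (log2 fold change -1.89 ± 0.17, adjusted p = 1.33e-05). In nascent RNA PCF11 was not called by DESeq2 (adjusted p = 0.0568), with the plain sum of intervals or without any 1 of the 4 libraries.

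The named genes that rose in total RNA, besides RCL1, included TUBGCP3, ALMS1-IT1 and ZNF695. TUBGCP3, a subunit of the gamma-tubulin ring complex, had 42 and 37 reads with Endovion and 385 and 242 with both compounds (log2 fold change 3.11 ± 0.28, adjusted p = 1.33e-05). ZNF695, a zinc finger gene, had 302 and 245 reads against 823 and 654 (log2 fold change 1.57 ± 0.18, adjusted p = 8.24e-05). Each gene named here for total RNA stayed called when any 1 of the 4 libraries was left out, and with the plain sum.

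The labelled share of each gene, its T>C reads over all its reads, was tested by asking whether THZ531 moved both read classes of a gene unequally. Of the 9946 genes, 0 were up (0%) and 0 were down (0%) at an adjusted p under 0.05 with edgeR, and 0 with DESeq2 too. At an unadjusted p under 0.05, edgeR gave 276 up and 166 down, and the smallest adjusted p was 0.283. Fits to the 4 libraries alone called 3 genes up. A p that misses the threshold does not show that the shares were equal.

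DNA repair genes were called in 1 direction. For this and the other lists, the shares called over all genes tested were 5.92% down and 2.29% up in total RNA. In nascent RNA they were 0.855% down and 0.452% up. Of 45 repair genes tested in total RNA, 11 were down and 0 up, with a median log2 fold change of -0.17 against 0.003 over all genes. They included BRCA1 and BRCA2, which act in homologous recombination, ATR, a checkpoint kinase, BLM and BRIP1, which are helicases, TOPBP1, RAD51D, RAD52, FANCF, SLX4 and ERCC4. ERCC4, the nuclease subunit XPF, had 447 and 343 reads with Endovion and 76 and 72 with both compounds (log2 fold change -2.26 ± 0.25, adjusted p = 7.95e-05). FANCF, a subunit of the Fanconi anaemia core complex, had 596 and 517 against 234 and 142 (log2 fold change -1.45 ± 0.18, adjusted p = 0.000198).

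BRCA1 had 3408 and 2802 reads against 2168 and 1748 (log2 fold change -0.53 ± 0.11, adjusted p = 0.00642). BRCA2 had 447 and 408 against 191 and 169 (log2 fold change -1.11 ± 0.19, adjusted p = 0.00172). For all 4 of these genes the groups did not overlap in total RNA, which was so for 53.1% of all genes tested. BRCA1 was not called without Endovion replicate 2 or without THZ531_Endovion replicate 2 (adjusted p = 0.0635 and 0.0526). In nascent RNA 2 of 38 members were called, ERCC4 at -3.37 ± 0.93 (adjusted p = 0.0499), from 14 and 31 T>C reads to 0 and 4, and FANCF at -1.55 ± 0.39 (adjusted p = 0.0278). Neither was called in nascent RNA by DESeq2 (adjusted p = 0.0916 and 0.0801), by the fit to the 4 libraries, with the plain sum of intervals, or without either Endovion replicate. Without THZ531_Endovion replicate 1 ERCC4 was not called, and without THZ531_Endovion replicate 2 FANCF was not. Intervals of RAD51D and SLX4 overlap those of another gene, with which their reads may be shared. Without 1 library, between 5 and 10 members were called down in total RNA, the fewest without THZ531_Endovion replicate 1. The plain sum of intervals gave 7 down and 1 up.

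Cleavage and polyadenylation factors included 5 genes called down and 1 called up of 24 tested, against 5.92% and 2.29% of all genes tested. Besides PCF11 they were CPSF2, CPSF4 and WDR33, subunits of the cleavage and polyadenylation specificity factor, and CSTF2T, a subunit of the cleavage stimulation factor, with log2 fold changes from -0.69 to -0.40. SCAF8, an anti-terminator that binds the polymerase tail, was up by 1.13 ± 0.17 on the log2 scale (adjusted p = 0.000607), from 34.7 and 32.8 to 83 and 64.6 normalised CPM. WDR33 shares an interval with another gene. Between 1 and 3 members were down without 1 library, with 1 without Endovion replicate 1 or THZ531_Endovion replicate 1, and 3 were down with the plain sum of intervals. The median of the list was -0.015.

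Immediate early genes were called in the other direction. Of 41 members tested in total RNA, 11 were up and 0 down, with a median log2 fold change of 0.376. Over all genes tested, 2.29% were up and 5.92% down. FOS and FOSB, subunits of the AP-1 transcription factor, had log2 fold changes of 1.68 ± 0.48 (adjusted p = 0.0435) and 1.88 ± 0.42 (adjusted p = 0.0114), at few reads. FOS had 55 and 28 reads with Endovion and 167 and 75 with both compounds. FOSB had 27 and 21 against 108 and 55, and the groups of both genes were apart. JUNB, a partner of FOS, had 764 and 606 reads against 1324 and 915 (log2 fold change 0.84 ± 0.22, adjusted p = 0.0402), and 93 and 103 against 217 and 148 T>C reads (log2 fold change 0.96 ± 0.23, adjusted p = 0.016). In total RNA JUNB was not called without any 1 of the 4 libraries, nor FOS and FOSB without Endovion replicate 1, Endovion replicate 2 or THZ531_Endovion replicate 1. FOS and JUNB were not called with the plain sum of intervals either (adjusted p = 0.0912 and 0.0579).

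The other members called up were DUSP5, a phosphatase of ERK, IER5, KLF2, NR4A2, GADD45A and GADD45B, which respond to stress, and ZFP36L1 and ZFP36L2, which bind AU-rich elements and speed mRNA decay. DUSP5 had 17 and 21 reads against 120 and 44. In nascent RNA 4 of 36 members were up, JUNB, IER5, KLF10 and GADD45A, against 0.452% of all genes tested. In nascent RNA 0 members were up with the plain sum of intervals and without Endovion replicate 1, Endovion replicate 2 or THZ531_Endovion replicate 1. There, 2 were up and 1 down without THZ531_Endovion replicate 2, and 1 was up by DESeq2. In total RNA 3 members were up without Endovion replicate 1, without Endovion replicate 2 or without THZ531_Endovion replicate 1, and 11 members were up and 1 down without THZ531_Endovion replicate 2. With the plain sum of intervals 7 were up. Of the 35 short-lived mRNAs, a list that shares genes with this one, 8 were up and 0 down, and between 1 and 9 were up without 1 library, with 1 without Endovion replicate 2 or THZ531_Endovion replicate 1. Of the 34 stable mRNAs 0 were called in total RNA.

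FOS, FOSB and JUNB are printed here with the 150 bases before their start, since they are AP-1 genes that were called up together (RefSeq, GRCh38.p14, plus strand, at chr14:75278678-75278827, chr19:45467846-45467995 and chr19:12791336-12791485). Capitals mark TGACG, searched on both strands, and TATAAA.
FOS: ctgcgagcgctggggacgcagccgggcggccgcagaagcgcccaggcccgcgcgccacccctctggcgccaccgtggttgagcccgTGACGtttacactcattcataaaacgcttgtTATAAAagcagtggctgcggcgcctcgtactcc
FOSB: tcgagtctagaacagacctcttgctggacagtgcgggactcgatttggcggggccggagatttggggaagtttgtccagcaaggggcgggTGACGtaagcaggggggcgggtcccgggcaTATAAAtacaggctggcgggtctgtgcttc
JUNB: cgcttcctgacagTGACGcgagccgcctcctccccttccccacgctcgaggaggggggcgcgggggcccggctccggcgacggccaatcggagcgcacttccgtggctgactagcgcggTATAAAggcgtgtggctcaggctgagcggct
These 3 were chosen after their values and sequences had been seen. Of the 11 immediate early genes called up, 7 could be matched to a promoter, and 4 of the 7 held TGACG and 4 held TATAAA in these 150 bases, on either strand. Of 27305 promoter windows of the same length in the RefSeq table, 15.9% held TGACG and 7.05% held TATAAA, and of the 10785 tested genes that could be matched 22.2% and 3.1%. Only 235 of the 336 genes called up could be matched to a promoter by symbol, and of these 25.5% held TGACG and 5.53% TATAAA. Of the 686 matched genes called down, 21.9% and 3.35% did. CCAAT was searched too, and was held by 4 of the 7 immediate early genes and 27.3% of the matched tested genes. The longer TGACGTCA was held by 0 of the 7 and by 2.4%.

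Against 5.92% down over all genes tested, 4 of 13 prostate lineage factors were down in total RNA and 0 up, with a median log2 fold change of -0.207. HOXB13 and TBX3, transcription factors of the prostate epithelium, were among them. HOXB13 had 82 and 67.8 normalised CPM with Endovion and 46.7 and 45.6 with both compounds (log2 fold change -0.70 ± 0.14, adjusted p = 0.00534). TBX3 had 521 and 596 against 328 and 372 (log2 fold change -0.67 ± 0.11, adjusted p = 0.00134). Between 2 and 4 of the list were down without 1 library, with 2 without Endovion replicate 1, and 1 was up without THZ531_Endovion replicate 1. HOXB13 missed the threshold without Endovion replicate 1 (adjusted p = 0.098), and TBX3 stayed called without any 1 of the 4 libraries.

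Among 30 elongation kinases and their partners, CCNT2, HEXIM1 and RTF1 were up and 0 were down, with a median of 0.20. Over all genes tested, 2.29% were up and 5.92% down. CCNT2 is a cyclin of the elongation kinase P-TEFb and HEXIM1 is its inhibitor. HEXIM1 had 66.7 and 68.2 normalised CPM with Endovion and 104 and 113 with both compounds (log2 fold change 0.68 ± 0.18, adjusted p = 0.0297). With any 1 of the 4 libraries left out, or with the plain sum of intervals, RTF1 stayed up, and CCNT2 and HEXIM1 were not called. CDK12 itself was not called (total log2 fold change 0.25 ± 0.14, adjusted p = 0.351).

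Of 34 p53 targets, CDKN1A, BBC3, PLK2 and ZMAT3 were up and POLH was down, against 2.29% up and 5.92% down over all genes tested. CDKN1A, which encodes the cyclin-dependent kinase inhibitor p21, changed by 0.54 ± 0.13 (adjusted p = 0.0203) and POLH, a translesion polymerase, by -1.71 ± 0.28 (adjusted p = 0.0017). The number up was 0 without Endovion replicate 1 or without THZ531_Endovion replicate 1, and 1 without Endovion replicate 2.

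MYC was not called, with a total log2 fold change of 0.17 ± 0.39 (adjusted p = 0.863) and a nascent one of 0.11 ± 0.22 (adjusted p = 0.934). In nascent RNA its sign turned without Endovion replicate 1 or without THZ531_Endovion replicate 2. Of 78 MYC targets in total RNA, HNRNPU was up and POLR1A and PPAN were down. A log2 fold change above 0 was seen in 62, with a median of 0.119. Over all genes tested 7393 of 14689 were above 0. The excess was not particular to MYC targets. Above 0 were 63 of 75 cytosolic ribosomal proteins, 64 of 75 nuclear respiratory chain subunits and 32 of 34 stable mRNAs, against 16 of 45 DNA repair genes. In nascent RNA PA2G4 and HNRNPU were up of 76 tested and 0 were down, with 2 up by DESeq2 and 0 with the fit to the 4 libraries, the plain sum of intervals or without any 1 of the 4 libraries. Without 1 library, between 1 and 3 targets were up and between 1 and 3 down in total RNA. Among genes that the study names, VEGFA, FOXA1, ETV1, SRPK2 and SRPK3 had total log2 fold changes of 0.50, 0.10, -0.10, 0.21 and 0.75 (adjusted p = 0.0801, 0.907, 0.739, 0.551 and 0.561). SRPK1 had a total log2 fold change of 0.06 ± 0.19 (adjusted p = 0.901), and the SR protein SRSF1 one of -0.04 ± 0.19 (adjusted p = 0.942). Of 30 genes listed with the SR factors, 1 was up in total RNA, CCNL1, a cyclin of CDK11. CCNL1 was not called without Endovion replicate 1. In nascent RNA 1 of 29 tested was up, SON. It was not called with the fit to the 4 libraries, the plain sum of intervals or without any 1 of the 4 libraries. The splicing kinases had 1 member up of 11, DYRK2. None of 12 genes of the MYC network, 10 snoRNA host genes, 75 cytosolic ribosomal proteins, 75 nuclear respiratory chain subunits, 21 heat shock chaperones or 30 genes of cholesterol and fatty acid synthesis was called in total RNA.

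For lists of stress and growth the shares called in total RNA are to be read against 2.29% up and 5.92% down over all genes tested. Of 34 genes of the integrated stress response, DDIT3, a transcription factor of stress-induced cell death, and CEBPB were down. Of 38 genes of folding in the endoplasmic reticulum, DNAJB9 was up and HERPUD1 down. Of 24 NRF2 targets, HMOX1, which degrades heme, was up in total (0.98 ± 0.18, adjusted p = 0.00308) and nascent RNA (1.33 ± 0.37, adjusted p = 0.0499), and KEAP1 was down in total RNA. Of 29 genes of TNF and NF-κB signaling, CEBPB was down, and CEBPD was up in nascent RNA (1.31 ± 0.36, adjusted p = 0.0499). In nascent RNA neither HMOX1 nor CEBPD was called by DESeq2, without the low-count filter, by the fit to the 4 libraries, with the plain sum of intervals, or without any 1 of the 4 libraries. The total call of HMOX1 was lost without Endovion replicate 1 (adjusted p = 0.064). Without 1 library, between 0 and 3 genes of the stress response were down and between 0 and 2 up, and of the folding list 0 were up and between 0 and 1 down. The NRF2 targets and the TNF list each had between 0 and 1 in each direction.

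Of 26 genes of the BCL2 family, BCL2L11 and BBC3, which promote cell death, were up and BCL2L13 was down. Of 40 mitotic genes CCNB2 was up, and HMMR and ASPM were down. Of 51 DNA replication genes RFC3, a clamp loader subunit, was up, and CDC6 and ORC5, which license origins, were down. Of 12 targets of the aryl hydrocarbon receptor, CYP1A1 and AHRR, the repressor of the receptor, were down, and an interval of AHRR overlaps another gene. Without 1 library, the BCL2 family had between 0 and 1 up and 0 down, with 0 of either unless THZ531_Endovion replicate 2 was the one left out. The mitotic and the replication lists had between 0 and 1 in each direction, and the receptor's targets between 0 and 1 up and between 0 and 2 down, with 0 down except without Endovion replicate 1. CYP1A1 was called in total RNA without Endovion replicate 1, and not without any other of the 4 libraries or with the plain sum of intervals.

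**Figure D3:**
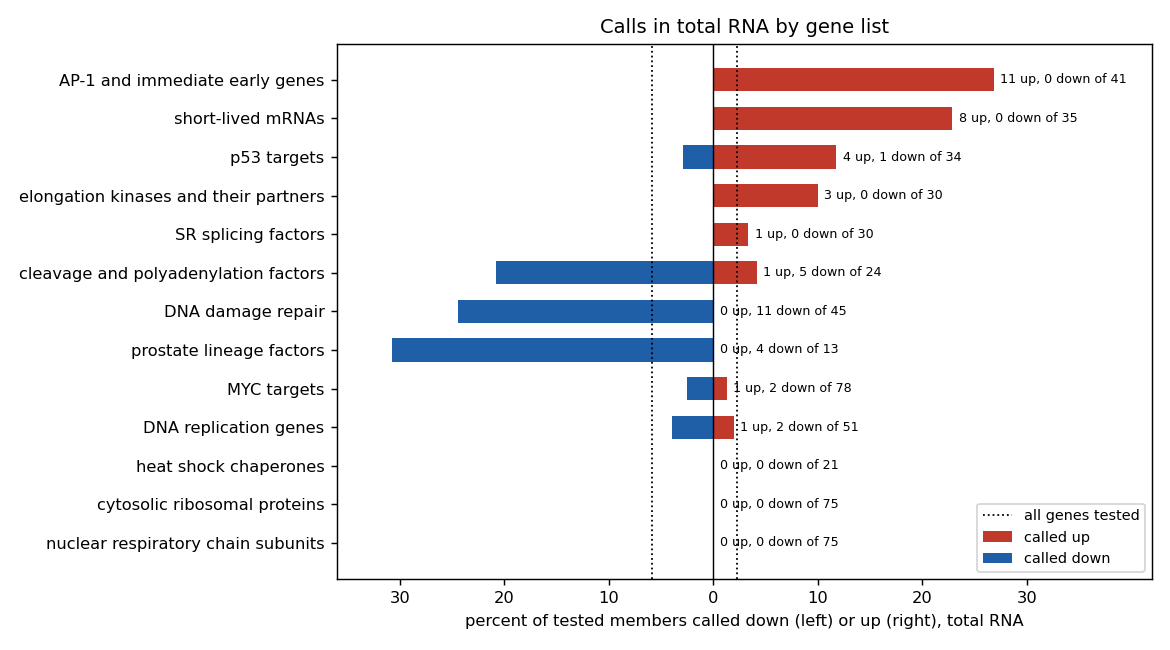
Percent of the tested members of 13 gene lists called down (blue, left) or up (red, right) in total RNA, with the counts beside the bars and the percent over all genes tested as dotted lines (5.92% down and 2.29% up). Of the lists drawn, the immediate early genes reach furthest up (11 of 41), while lineage factors (4 of 13), DNA repair (11 of 45) and cleavage factors (5 of 24) reach furthest down.

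By gene structure, the share called down was highest among protein-coding genes with few exons. Of 205 single-exon genes tested in total RNA, 52 were down and 7 up, with a median log2 fold change of -0.281. Of 417 genes with 2 exons, 50 were down, and of 594 genes with over 30 exons, 21. Over all 12883 protein-coding genes, 765 were down. Genomic span showed a smaller range, from 90 of 1052 genes under 5 kb to 25 of 1054 genes over 200 kb. By the study's length classes, 2 of 211 genes whose merged exons span under 1 kb and 50 of 699 above 15 kb were down. With the same limits on genomic span the counts were 1 of 34 and 476 of 9391. Among genes of similar level, in 5 bins of mean reads, between 11% and 60% of the single-exon genes were down, and between 2.68% and 7.02% of the other protein-coding genes that were not zinc finger genes. Between 23 and 45 single-exon genes were down without 1 library, the fewest without Endovion replicate 1. For genes with 2 exons the range was 25 to 45, the fewest without Endovion replicate 1, and for genes with over 30 exons it was 6 to 11, the fewest without THZ531_Endovion replicate 1.

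Zinc finger genes, most of which encode DNA-binding repressors, formed another class described by its counts. Of 478 tested in total RNA, 97 were down and 23 up, with a median log2 fold change of -0.326. Over all protein-coding genes 5.94% were down and 2.27% up. On chromosome 19, where many zinc finger genes are clustered, 53 of 226 were down, and elsewhere 44 of 252. Within the 5 bins of level, between 13.8% and 22.8% of the zinc finger genes were down. Without 1 library between 39 and 72 were down, the fewest without Endovion replicate 1. These classes by exon number and name were chosen after values had been seen. Where 2.29% of all genes tested were up, 8 of 86 snoRNAs were up and 0 down, against 2 up with the plain sum of intervals. The number up was 0 without Endovion replicate 1, 1 without Endovion replicate 2 or THZ531_Endovion replicate 1, and 9 without THZ531_Endovion replicate 2.

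**Figure D4:**
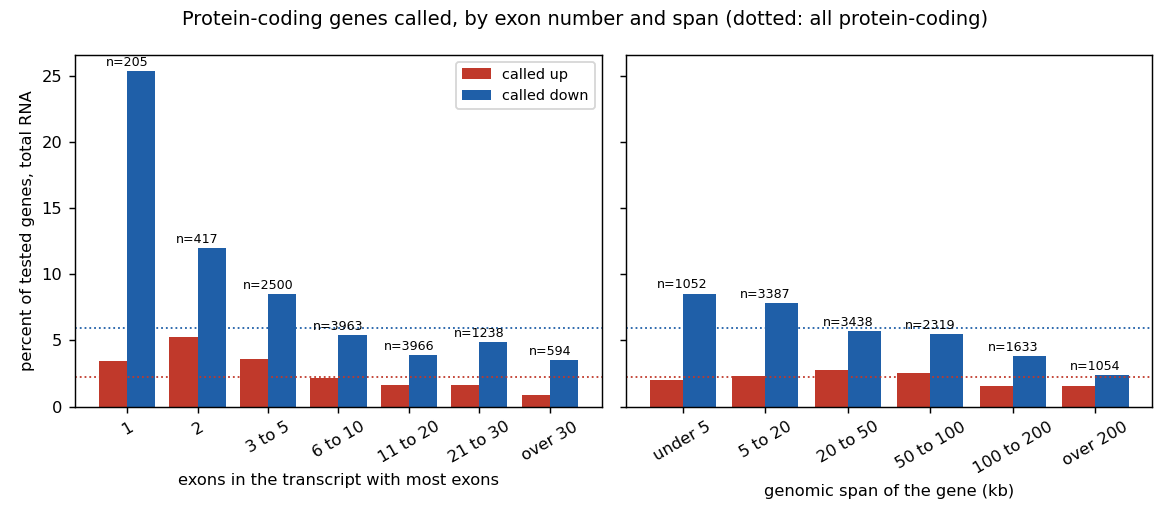
Percent of tested protein-coding genes called up (red) and down (blue) in total RNA by the number of exons (left) and by genomic span (right), with the number of genes tested above the bars and the percent over all protein-coding genes as dotted lines. Single-exon genes stand highest, with 52 of 205 down, and the bars change less with span.

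The effect of THZ531 was set beside that in cells without Endovion, THZ531 against untreated control, which shares no library with it. Across genes the log2 fold changes of both comparisons had a Pearson r of 0.554 in total RNA and 0.354 in nascent RNA. Of the 870 genes down in Endovion-treated cells, 858 were also below 0 without Endovion, with medians of -1 and -1.12. All 336 genes that were up were also above 0, with medians of 0.75 and 0.84. These genes were chosen by their call with Endovion, which favours large values there, so the medians cannot show effects of equal size. The share of equal sign over all genes was not counted. Over all tested members, the median of the immediate early genes was 0.376 with Endovion and 0.81 without. That of the DNA repair genes was -0.17 and -0.159.

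**Figure D5:**
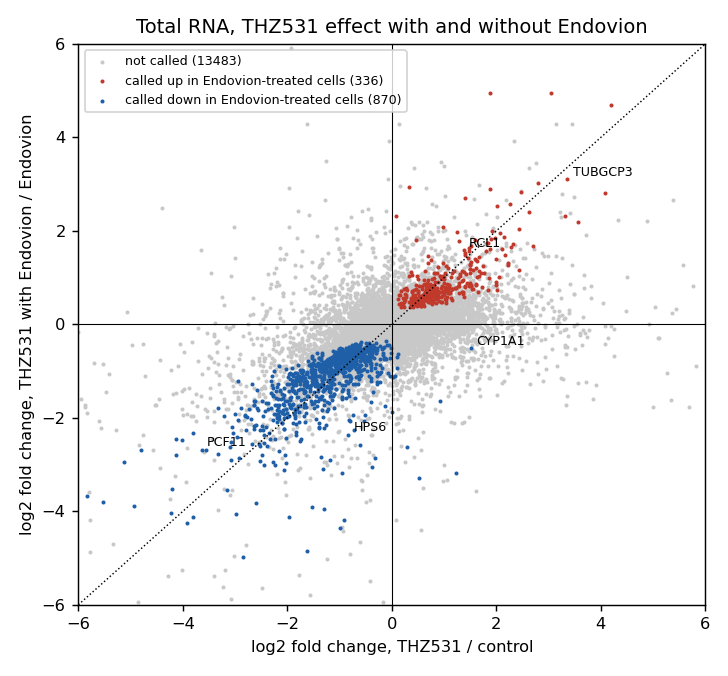
Total RNA log2 fold change of THZ531 over control (horizontal) and of THZ531 with Endovion over Endovion (vertical), 1 point per gene, with genes called in Endovion-treated cells in colour and 61 genes beyond the axis limits of 6 not drawn. Nearly all coloured points lie in the quadrants of equal sign, and CYP1A1 does not.

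The difference between both effects was tested directly. In total RNA 0 genes were up (0%) and 1 was down (0.00681%), CYP1A1, while 534 up and 1371 down had an unadjusted p under 0.05 with edgeR. DESeq2 called 12 up and 182 down. CYP1A1, an enzyme induced through the aryl hydrocarbon receptor, had 184 and 238 normalised CPM with Endovion and 141 and 155 after THZ531 was added. It had 5.03 and 3.66 in control cells and 12.9 and 12 with THZ531 alone. The log2 fold changes were -0.51 ± 0.15 with Endovion and 1.51 without, and their difference was -2.02 ± 0.23 (adjusted p = 0.00202). In nascent RNA it had 234 and 207 T>C reads with Endovion and 79 and 117 with both compounds, groups that did not overlap (log2 fold change -1.06 ± 0.30, adjusted p = 0.0561).

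In nascent RNA the difference was called up for 2 genes (0.0201%) and down for 28 (0.282%). For all 28 genes that were down, both control libraries lay below all 8 treated libraries, those with SRPIN340 among them. Control counts enter this difference with a plus sign, so low controls favour a call below 0, and the share over all genes was not counted. For 16 of the 28 the libraries with and without THZ531 overlapped among Endovion-treated cells. That is no trait of these genes, as only 41.1% of all genes tested had libraries that did not overlap. MNAT1, an assembly factor of the CDK-activating kinase, was at 5 and 6 T>C reads without treatment, 159 and 158 with THZ531, 133 and 141 with Endovion and 136 and 115 with both compounds. Its nascent log2 fold change was -0.05 ± 0.25 in Endovion-treated cells and 5.02 ± 0.37 without Endovion. Without 1 library between 1 and 89 genes were down. The count was 1 without THZ531 replicate 2, Endovion replicate 1 or THZ531_Endovion replicate 1, 2 without control replicate 2, 4 without Endovion replicate 2, 9 without THZ531_Endovion replicate 2, and 89 and 67 without control replicate 1 and THZ531 replicate 1.

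The 2 genes up were KDELR2 and WNT7B, a secreted WNT ligand. KDELR2 was at 299 and 450 T>C reads without treatment and at 247 and 214 with THZ531, so that its nascent log2 fold change was -0.55 ± 0.20 there and 1.05 ± 0.20 in Endovion-treated cells. WNT7B, chosen after its values were seen, had 0 T>C reads in both Endovion libraries and 19 and 32 with both compounds, which is at least 9.17-fold higher when 3 counts in each library are taken as the floor. Its total reads showed no such gap, with 1.45 and 2.13 normalised CPM against 2.37 and 3.14. Without Endovion replicate 1 neither gene passed the threshold (adjusted p = 0.0846 for each). With the plain sum of intervals neither did (adjusted p = 0.418 for KDELR2 and 0.233 for WNT7B), and DESeq2 gave no adjusted p for WNT7B. Further, the number of genes up ranged from 0 to 6 when 1 of the 8 libraries of control, THZ531, Endovion and both compounds was left out. KDELR2 alone of the pair also missed it without control replicate 2, Endovion replicate 2 or THZ531_Endovion replicate 1 (adjusted p = 0.245, 0.0582 and 0.0749).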

How the data were processed

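SLAM-seq 3′ end libraries were analysed. The authors counted conversions with SLAM-DUNK against hg38 and deposited counts of reads and T>C reads per 3′ UTR interval, without normalization, and a CPM-like score, deposited by the authors and not used here. UMI handling, strand setting and the conversions needed per read are not given in the sources used here. Of 104653 intervals, 92826 matched GENCODE v44 (3.53% of T>C reads were on unmatched ones). Of overlapping intervals of a gene the best covered was kept, which gave 57382 intervals and 31015 genes. For 3739 genes an interval overlaps another gene's on either strand.

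The quasi-likelihood test of edgeR 4.0.16 was run in R 4.3.3 on counts (TMM, filterByExpr, robust quasi-likelihood fit over 10 libraries, 5 residual degrees of freedom). DESeq2 1.42.0 was an alternative. Share was tested with the library as a block. The nascent, total and share tests of the main comparison were tested on simulated data. Gene lists, comparisons and alternatives were chosen with earlier results of these data known. Named genes are, per direction, the 10 (nascent) or 5 (total, share) with the smallest p among those called at a log2 fold change of at least 1, at least 20 reads in each library of the higher group, groups apart and no shared interval. The share had none, and the difference 3 per direction without the log2 limit. Genes the study names and list members by p were added. Results of some genes and lists that meet these rules are not reported here.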

Additional observations from a re-analysis of the deposited data

Results flagged for a closer look

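The effect of THZ531 differed between cells with and without Endovion for the following genes, by the test of the difference itself (edgeR). In nascent RNA the log2 difference, with minus without Endovion, was 1.60 for KDELR2 (adjusted p = 0.00253), -5.07 for MNAT1 (adjusted p = 7.35e-12), -1.43 for NUDT21 (adjusted p = 0.0186) and -2.58 for NFYA (adjusted p = 0.0186). NUDT21, a subunit of cleavage factor I, was at 97 and 66 T>C reads without treatment and between 184 and 249 in the 6 libraries with THZ531, Endovion or both. NFYA, a subunit of the CCAAT-binding factor, was at 16 and 7 without treatment and between 33 and 121 in the same 6 libraries. With the plain sum of intervals, MNAT1 stayed called (adjusted p = 0.000421) and KDELR2, NUDT21 and NFYA did not (adjusted p = 0.418, 0.418 and 0.424). MNAT1 stayed called without any 1 of the 8 libraries of control, THZ531, Endovion and both compounds. The other 3 genes lost the call without control replicate 2, Endovion replicate 1 or THZ531_Endovion replicate 1. KDELR2 also lost it without Endovion replicate 2, NUDT21 without THZ531 replicate 2, Endovion replicate 2 or THZ531_Endovion replicate 2, and NFYA without THZ531 replicate 2 or THZ531_Endovion replicate 2. In total RNA the log2 difference was -2.02 for CYP1A1 (adjusted p = 0.00202). It was the 1 gene called there, so none of the genes flagged in nascent RNA was called for the difference in total RNA. CYP1A1 stayed called with DESeq2 and with the plain sum of intervals. Fits without 1 library were not run for the total difference.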

How the results depend on the processing

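Of the counts of genes called, most changed little with the normalization, and more with the number of libraries and the sum of intervals. DESeq2 called 28 up and 50 down in nascent RNA, and for the nascent difference 1 up and 17 down. For the total difference, chosen after seeing the data, it called 12 up and 182 down. The plain sum gave 1 up and 0 down in nascent RNA and 0 up and 2 down for its difference. Without the low-count filter 510 genes were up in total RNA and 1 in the share. The fit to the 4 libraries gave 509 up in total RNA and 3 up in the share, and the fit without the control libraries, chosen after seeing the data, 1 up in the share. By the study's call rule (unadjusted p under 0.05, log2 fold change past 1 in size) 194 were up and 354 down in nascent RNA. In total RNA 200 were up and 747 down, and in the share 153 up and 103 down. Leaving out 1 library gave 6 to 26 up and 10 to 45 down in nascent RNA, 75 to 211 up and 326 to 566 down in total RNA, 0 in the share, and 0 to 6 up and 1 to 89 down for the nascent difference, a series chosen after seeing the data. The cause of these changes was not tested.

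No label says what samples of equal replicate number share. Their deviations in the 2 groups compared correlated at 0.0348 in nascent and 0.124 in total RNA. Over the 10 pairs of groups the range was -0.0698 to 0.06 in nascent and -0.276 to 0.372 in total RNA. With the replicate number as a block, 51 genes were up and 89 down in nascent RNA, 312 up and 812 down in total RNA, 0 in the share, and 2 up and 33 down for the nascent difference. Of 49 genes followed through the alternatives in nascent RNA, the log2 fold change of 3 changed sign. Without 1 library, FOXA1 (-0.136) ranged from -0.344 to 0.0531, MYC (0.113) from -0.218 to 0.390 and SRPK1 (-0.0297) from -0.0981 to 0.0385. SRPK1 was at 0.0231 when scaled by all reads. None of these was called. Scaling by all reads moved the median nascent log2 fold change from 0 to 0.052. With 2 libraries per group, low-count genes such as FOS have wide errors.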
